A study of Mus musculus with 13 samples.

Results

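Dermal fibroblasts of the mouse back at day E16.5 of embryonic life were taken from 4 single-cell RNA-seq libraries of whole back skin, 2 from wild-type (WT) and 2 from Grhl3-/- embryos. A cell was counted as a fibroblast if it had 600 to 4800 genes and at most 10% mitochondrial UMIs (unique molecular identifiers, 1 per captured transcript), and at least 50 UMIs of Col1a1, Col1a2 and Col3a1 together per 10000. It also had to show a UMI of Pdgfra, Lum or Twist2, at most 5 UMIs of Krt5, Krt14 and Krt10 together, no Sox2 UMI, and at most 1 of Rgs5, Myog, Pax7, Sox10 and Pecam1. The members were thus chosen by measured UMIs of these genes. The rule returned 13882 cells of 27298 that passed the gene and mitochondrial limits, from 34410 E16.5 barcodes and 97363 barcodes in the whole series. The same rule returned 14762 of 24357 cells at E14.5, from 2 WT and 2 Grhl3-/- libraries, and these were used for the comparison between ages. Grhl3 encodes a transcription factor of the epidermis, and the whole-skin samples also captured the dermis beneath it. The Grhl3-/- embryos carried spina bifida, their skin was cut from the anterior back away from the defect, and WT embryos, of the C57BL/6 strain, were littermates. The 2 libraries of a group are separate biological replicates. The p-values rest on the spread within groups, estimated over the 8 libraries of both ages together.

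Fibroblasts of the back dermis arise from a common precursor in the early embryo and settle into an upper papillary layer, which faces the epidermis and supports hair follicles, and a lower reticular and hypodermal layer. The lower lineage builds most of the fibrillar matrix and gives rise to preadipocytes and dermal fat. Dlk1 is an imprinted gene on chromosome 12 (GRCm38, 109452823 to 109463336, plus strand) whose transmembrane product, also known as Pref-1, is a marker of preadipocytes and of the lower dermis and restrains adipocyte formation. Pparg and Cebpa encode the central transcription factors of adipocyte formation, and Lpl, Fabp4, Plin1, Cidec, Cfd and Adipoq encode proteins of maturing fat cells.

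The fibroblasts were well covered and the 4 libraries were of similar depth. The median cell had 7108 to 8314 UMIs and 2380 to 2566 genes, and the UMIs of all fibroblasts of a library summed to 18133010 to 34430147. Any pair of E16.5 libraries shared 92 to 119 cell barcodes, at most 1.43% of the smaller library. By Xist and Ddx3y, both WT libraries and Grhl3-/- replicate 2 were female at E16.5 and Grhl3-/- replicate 1 was male, while the study's methods give 1 male and 1 female per group. At E14.5, WT replicate 2 was female and the other 3 libraries were male. Grhl3 itself was near absent from fibroblasts, with 14 and 4 UMIs in the WT and 3 and 3 UMIs in the Grhl3-/- libraries summed over all fibroblasts, and a 3' tag can lie outside a deleted part, so these counts do not check the genotype.

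The genes given as markers of these cells were at high levels in every library. Col1a1, Col3a1, Lum and Pdgfra helped to choose the cells, so their values are a description. Levels are counts per 1000000 UMIs (CPM) of a library's summed fibroblasts. Col1a1, a chain of type I collagen, was at 10043 and 9464 CPM in WT and 10781 and 10597 CPM in Grhl3-/- (replicates 1 and 2 of each). Col3a1, the chain of type III collagen, was at 8837 and 8593 CPM in WT and 9654 and 9449.6 CPM in Grhl3-/-. Lum, which encodes the proteoglycan lumican, was at 2497 and 2759 CPM in WT and 2789 and 2699 CPM in Grhl3-/-. Pdgfra, a receptor of platelet-derived growth factors, was at 72.3 to 83.5 CPM in the 4 libraries. In keratinocytes of the same libraries (at least 50 keratin UMIs per 10000) Col1a1 was at 123 to 203 CPM, Lum at 41.6 to 63.3 CPM and Pdgfra at 1.23 to 2.55 CPM. The fibroblasts were far above these levels, as the rule requires.

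Cells near the limits of the rule were few for collagen and many for keratins. There were 205 members with 50 to 60 collagen UMIs per 10000 and 234 otherwise eligible cells with 40 to 50. There were 1011 members with exactly 5 keratin UMIs and 596 otherwise eligible cells with 6. The 1011 members were spread unevenly, with 483 and 441 in the WT libraries and 60 and 27 in the Grhl3-/- libraries. The keratin limit removed 705 and 993 cells of the WT libraries (13.3% and 28.7% of those that met the collagen and marker limits) and 78 and 74 cells of the Grhl3-/- libraries (2.41% and 1.84%).

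Fibroblasts made up a larger share of the kept cells in the Grhl3-/- libraries, but that share moved with the keratin limit. The rule kept 4492 cells (51.6%) and 2418 cells (36.3%) in WT and 3095 cells (57.0%) and 3877 cells (59.7%) in Grhl3-/-. The group means were 43.9% ± 10.9 in WT and 58.3% ± 1.93 in Grhl3-/- (SD, n = 2), 14.4 percentage points apart. The groups did not overlap, and the smallest two-sided p that an exact permutation test of 2 against 2 libraries allows is 0.33. When the keratin limit was set per 10000 UMIs instead, the shares were 58.7% and 49.7% in WT and 58.2% and 60.5% in Grhl3-/-, and the difference was 5.19 points. With keratinocytes and erythroid cells taken out of the denominator the shares were 71.2% and 67.4% in WT and 65.7% and 67.4% in Grhl3-/-, and the difference was -2.72 points.

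Dlk1 varied widely from cell to cell and the spread was alike in the 4 libraries. To compare cells of unequal depth, each was thinned at random to 3000 UMIs, which left out 256 shallower fibroblasts. The median E16.5 fibroblast then held 4 and 4 Dlk1 UMIs in the WT libraries and 5 and 5 in the Grhl3-/- libraries. The 90th percentile was 37.9 and 38 UMIs in WT and 40 and 40 UMIs in Grhl3-/-, and the highest cells held 93 to 101. No Dlk1 UMI was found in 11.8% and 13.1% of WT and 10.5% and 8.97% of Grhl3-/- fibroblasts. Before thinning, 93.3% to 96.6% of the cells had a Dlk1 UMI. The 4 curves lay close together, with most cells below 10 UMIs and a long tail above. The mean over libraries of the 90th minus the 10th percentile was 38.7 UMIs.

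Low Dlk1 counts could not be told from background. A Dlk1 UMI was found in 23.9% to 34.0% of keratinocytes and 28.2% to 39.6% of macrophages thinned in the same way, cell types that should lack the gene, and their median was 0 UMIs in every library. Before thinning, a Dlk1 UMI was found in 57.5% to 71.1% of keratinocytes and 61.7% to 70.9% of macrophages, against 93.3% to 96.6% of fibroblasts. Median depths before thinning were 8772 to 11118 UMIs for keratinocytes and 7821.5 to 11429.5 UMIs for macrophages. The 244 E16.5 cells that met the rest of the rule but had a Sox2 UMI, a gene of the hair follicle's dermal condensate, had a median of 1 to 2 Dlk1 UMIs. Their summed Dlk1 level was 1045 to 1758 CPM, below the 4331 to 4878 CPM of the fibroblasts. Sox18, another gene of the condensate, was at 264 to 314 CPM in them and at 16 to 19 CPM in the fibroblasts. These cells were set apart by their Sox2 UMI, so the values are a description.

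**Figure D1:**
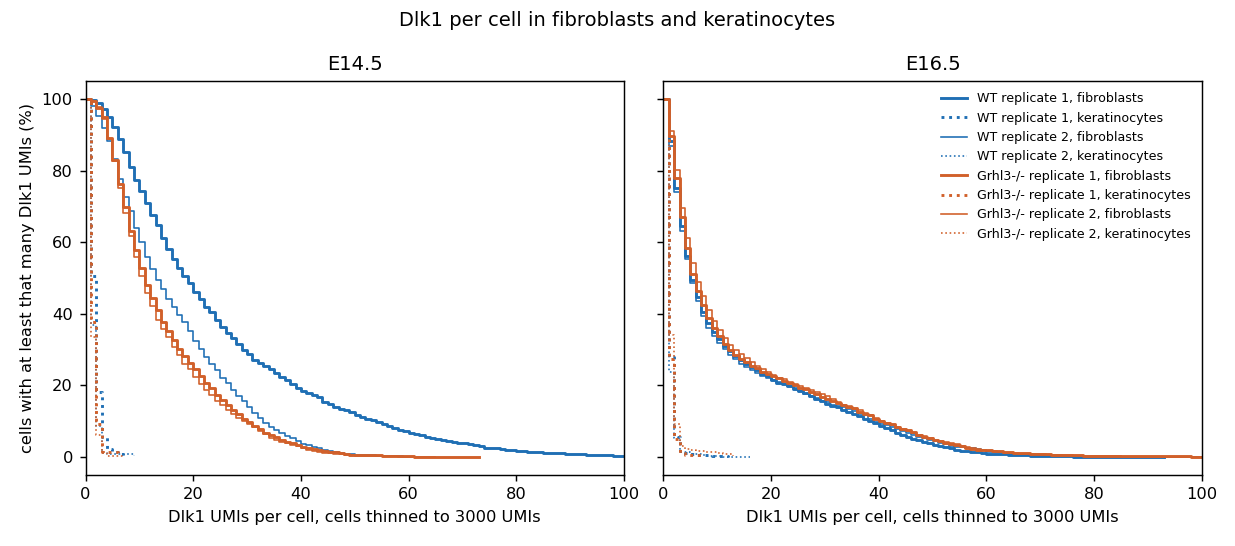
Share of cells (%, vertical axis) with at least a given number of Dlk1 UMIs (horizontal axis) after thinning each cell to 3000 UMIs, at E14.5 and E16.5, with 1 line per library for fibroblasts (solid) and keratinocytes (dotted). At E16.5 the 4 fibroblast lines lie together with medians of 4 to 5 UMIs and tails to 93 UMIs or more, and at E14.5 WT replicate 1 lies to the right of the other 3 libraries.

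The Dlk1 range had another shape at E14.5. The median E14.5 fibroblast held 18 and 12 UMIs in the WT and 10 and 10 UMIs in the Grhl3-/- libraries, more than the 4 to 5 UMIs at E16.5, while the 90th percentile was 53 and 32 UMIs in WT and 29 and 29 UMIs in Grhl3-/-. Cells with no Dlk1 UMI were 0.357% to 2.00% at E14.5. Summed over cells, Dlk1 was at 7924 and 4854 CPM at E14.5 and 4348 and 4331 CPM at E16.5 in WT, and at 4269.8 and 4017 CPM at E14.5 and 4878 and 4875 CPM at E16.5 in Grhl3-/-. The groups did not overlap in either genotype, and E14.5 WT replicate 1 stood far above the other 3 libraries of its age. In edgeR's quasi-likelihood test with Benjamini-Hochberg adjustment, Dlk1 fell by 0.56 ± 0.18 (SE) on the log2 scale between E14.5 and E16.5 in WT (adjusted p = 0.0375). The call was lost in 7 of 8 fits that left out a library (adjusted p = 0.0527 to 0.145), with values of -0.56 to -0.55 in 6 of them, and with a sex covariate, where the value was -0.35. Without E14.5 WT replicate 1 the value was -0.16, and without E14.5 WT replicate 2, where the call was kept, it was -0.87. In Grhl3-/- the difference between ages was 0.24 ± 0.18 (adjusted p = 0.346), and the difference between the genotypes at E16.5 was 0.17 ± 0.18 (adjusted p = 0.923). Neither passed the threshold of 0.05. The comparisons of genotypes and of ages share libraries. Each age is 1 set of embryos and library preparations, so age and preparation cannot be told apart in any comparison of ages below.

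Many genes changed along the Dlk1 range. Fibroblasts of each library were ranked by thinned Dlk1 and split into 3 equal groups, called terciles, and the log2 ratio of CPM + 1 in the highest over the lowest tercile was taken. The lowest tercile held cells with 0 to 2 or 3 Dlk1 UMIs and the highest those with 9 or 10 and more. Cells are not replicates, and Dlk1 was chosen for its range, so these ratios are a description with no test. Of 2508 genes with at least 50 CPM in all 4 E16.5 libraries, 270 (10.8%) had a ratio of at least 0.5 in all 4 libraries and 277 (11.0%) a ratio of -0.5 or less. The highest tercile also had more UMIs per cell before thinning, with medians of 8097 to 9971 against 6298 to 7131 in the lowest, and more collagen, with medians of 277 to 303 against 139 to 184 UMIs per 10000. The part of these differences in the ratios was not tested, beyond the thinning to equal depth.

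Genes with the highest ratios included markers of the fascia and lower dermis. Ranked in WT replicate 1 over 2695 genes, the 10 highest ratios were those of C1qtnf3, Mfap5, Tmeff2, Clec3b, Agtr2, Ly6a, Akap12, Zcchc5, Igfbp6 and Rbp4, and all 10 were also above 4 in the other 3 E16.5 libraries, which the ranking did not use. Mfap5, a microfibril protein, was at 6.62, 6.74, 6.51 and 9.73 CPM in the lowest tercile and at 661, 757, 576 and 536 CPM in the highest (WT replicates 1 and 2, then Grhl3-/- replicates 1 and 2). Clec3b, which encodes tetranectin, was at 5 to 6.62 CPM in the lowest and 476 to 594 CPM in the highest tercile. Ly6a, the surface antigen Sca-1 of adipose progenitors, was at 3.37 to 9.11 CPM in the lowest and 261 to 473 CPM in the highest tercile. Agtr2, the type 2 angiotensin receptor, was at 14.3 to 25.5 CPM in the lowest and 1269.6 to 1494 CPM in the highest tercile. For each of these genes the highest tercile of every library lay above the lowest tercile of every other.

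Genes with the lowest ratios included markers of the upper dermis. The 10 lowest ratios included those of Stmn2, Lef1, Trps1, Cpne5, Wif1, Lmcd1, Cdkn1a, Aqp1 and Nrtn, and all of these were below -2 in the other 3 libraries. Lef1, a transcription factor of Wnt signalling and a papillary marker, was at 127 to 135 CPM in the lowest and 3.42 to 5.49 CPM in the highest tercile. Trps1, a transcriptional repressor needed for hair follicles, was at 335 to 379.6 CPM in the lowest and 12.6 to 25.7 CPM in the highest tercile. Wif1, a secreted Wnt inhibitor, was at 578 to 739 CPM in the lowest and 42.9 to 60.5 CPM in the highest tercile. Stmn2, a stathmin, was at 386 to 507 CPM in the lowest and 13.9 to 23.6 CPM in the highest tercile.

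**Figure D2:**
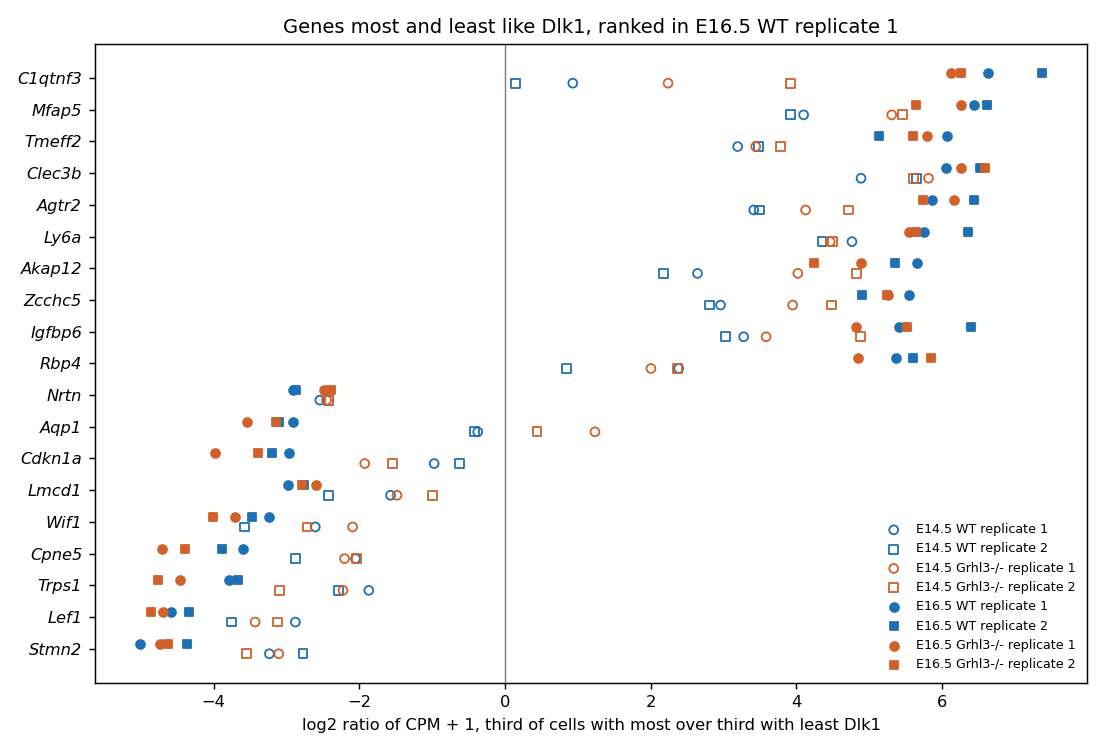
log2 ratio of CPM + 1 (horizontal axis) in the tercile of fibroblasts with most over the tercile with least Dlk1, for the 10 genes with the highest and 9 of the 10 with the lowest ratio in E16.5 WT replicate 1 (rows), 1 point per library. In all 4 E16.5 libraries (filled) the first 10 genes are above 4 and the last 9 below -2, and at E14.5 (open) the points lie nearer to 0 for most genes and Aqp1 and C1qtnf3 are near or across it in some libraries.

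The split was less sharp at E14.5 for most of these genes. C1qtnf3, a secreted C1q-like protein, had ratios of 6.12 to 7.38 at E16.5 and of 0.14 to 3.92 at E14.5. Aqp1, a water channel, had ratios of -3.54 to -2.92 at E16.5 and of -0.41 to 1.24 at E14.5. Mfap5 had ratios of 5.65 to 6.61 at E16.5 and of 3.92 to 5.45 at E14.5. The terciles at E14.5 are cut at higher Dlk1 counts, up to 12 UMIs for the lowest tercile of WT replicate 1, so the ratios at E14.5 and E16.5 rest on different ranges of Dlk1.

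Gene lists were counted along the same split, and they are not independent of the genes named above. The papillary list holds Lef1, Trps1 and Wif1, and the reticular and hypodermal list holds Mfap5, Clec3b and Ly6a. The lists were also chosen with earlier results of these data known. The counts are of members with at least 50 CPM, and a member counted as high or low had a ratio of at least 0.5 or of -0.5 or less in all 4 E16.5 libraries. Dlk1 itself, which sorted the cells, was left out of these counts. Of the reticular and hypodermal list 7 of 7 were high, with a median ratio of 3.80. Of the papillary list 5 of 5 were low, with a median of -3.61. Of all 2508 genes 10.8% were high and 11.0% low, and their median was -0.14. Of the imprinted list 10 of 11 were high, with a median of 2.24. Igf2, the fetal growth factor, had ratios of 3.59 to 4.41. Plagl1, an imprinted transcription factor, had ratios of 4.05 to 4.42, Mest 3.68 to 4.02 and Meg3, the non-coding RNA next to Dlk1, 2.05 to 2.41. Of the elastic fibre list 11 of 14 were high, among them Loxl1, an elastin cross-linking enzyme, with at least 4.16 in every library. Of the matrix glycoproteins 7 of 8 were high, among them Postn, which encodes periostin, with 4.33 to 4.45. Of the cell cycle list 16 of 22 were low and none was high, with a median ratio of -0.82. Before thinning, cells with a UMI of Mki67, Top2a, Cdk1 or Ube2c, genes of dividing cells, were 46.5% to 52.3% of the lowest and 43.4% to 51.2% of the highest tercile. The highest tercile was deeper before thinning, so these shares do not compare the terciles at equal depth.

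Preadipocyte genes were found in more cells at the Dlk1-high end. Pparg was found in 1.71%, 0.885%, 1.17% and 2.53% of cells of the lowest tercile and in 9.38%, 10.3%, 12.2% and 12.2% of the highest (WT replicates 1 and 2, then Grhl3-/- replicates 1 and 2). Lpl, which encodes lipoprotein lipase, was found in 4.93% to 9.28% of the lowest and 22.7% to 38.9% of the highest tercile. Fabp4, which encodes a fatty acid binding protein of adipocytes and endothelium, was found in 4.93% to 15.5% of the lowest and 20.1% to 37.2% of the highest tercile. In each of the 4 libraries all 3 genes were found in more cells of the highest than of the lowest tercile. Cd36, a fatty acid transporter, had ratios of 2.74 to 3.60. Ebf2, a transcription factor of preadipocytes, had ratios of 3.76 to 4.42, and Pi16, a marker of fascia progenitors, 5.09 to 5.57. Cebpa had ratios of 0.60 to 1.08, closer to 0.

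Pparg was well above background in these cells. It was at 26.2 and 24.3 CPM in WT and 29.3 and 33.8 CPM in Grhl3-/-, against 0.702 to 3.05 CPM in keratinocytes and 2.67 to 7.31 CPM in macrophages. After thinning to 3000 UMIs a Pparg UMI was found in 6.09% and 6.03% of WT and 6.74% and 8.18% of Grhl3-/- fibroblasts, against 0.197% to 0.671% of keratinocytes and 0% to 2.59% of macrophages. Unthinned, the shares of fibroblasts were 13% to 18.3% over the 4 libraries. The 95% exact binomial interval of the lowest thinned share, 5.10% to 7.06%, covers counting error only. Ebf2 was at 8.1 to 14.3 CPM in fibroblasts and 0.292 to 1.79 CPM in keratinocytes. Cebpa was at 36.6 to 46.1 CPM, below its level of 83.4 to 117 CPM in keratinocytes.

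Of 13 regulators of adipocyte formation tested, none passed the test between genotypes at E16.5, where 0.74% of all 14867 genes did. Between ages 3 rose and 1 fell in WT and 6 rose and 1 fell in Grhl3-/-, where 36.7% and 31.7% of all genes were called. Cebpa rose by 0.70 ± 0.08 on the log2 scale in WT (adjusted p = 0.000278), and it also rose in Grhl3-/- (adjusted p = 5.16e-05). Pparg was at 17.3 and 20.5 CPM at E14.5 in WT, a difference of 0.42 ± 0.17 that did not pass (adjusted p = 0.0864). In Grhl3-/- it was at 17.1 and 11.6 CPM at E14.5 and rose by 1.14 ± 0.17 (adjusted p = 0.00135). The difference between these changes did not pass (0.73 ± 0.24, adjusted p = 0.162).

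Lpl was the adipocyte gene with a call between genotypes. Lpl (chromosome 8, 68880491 to 68907448, plus strand) was at 81.6 and 69 CPM in WT and 131 and 169 CPM in Grhl3-/- fibroblasts. The groups did not overlap, and Lpl was 0.99 ± 0.16 higher on the log2 scale in Grhl3-/- (adjusted p = 0.0319). The call was kept by 16 of 22 alternatives and lost without E16.5 WT replicate 1 (1.12), WT replicate 2 (0.88) or Grhl3-/- replicate 2 (0.79), and with thinned cells, a sex covariate or a replicate block. Of 18 adipocyte genes tested it was the single one called, in a comparison where 0.188% of all genes were called higher. The share of fibroblasts with a Lpl UMI after thinning was 15.5% and 13.1% in WT and 17.9% and 23% in Grhl3-/-, against 1.18% to 3.77% of keratinocytes and 8.55% to 20.3% of macrophages. Fabp4 was at 128 and 94.4 CPM in WT and 259.7 and 277 CPM in Grhl3-/-, without overlap, and did not pass (1.27 ± 0.46, adjusted p = 0.429). In keratinocytes Fabp4 was at 14.9 and 8.83 CPM in WT and 172 and 43.4 CPM in Grhl3-/-, so its background was also higher in the Grhl3-/- libraries, and the part of background in the fibroblast values was not tested.

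Genes of mature fat cells were at low levels that were not set apart from those in other cells in the Grhl3-/- libraries. Adipoq, which encodes adiponectin, was at 0.371 and 0.116 CPM in WT and 9.29 and 6.48 CPM in Grhl3-/- fibroblasts, and at 0.0818 and 0 CPM in WT and 14.52 and 2.55 CPM in Grhl3-/- keratinocytes. Over all kept cells Adipoq was at 0.775 and 0.0347 CPM in WT and 119.8 and 56.3 CPM in Grhl3-/-. Cfd, which encodes the adipokine adipsin, was at 0.0309 and 0.0578 CPM in WT and 9.96 and 1.05 CPM in Grhl3-/- fibroblasts, and at 0 and 0 CPM in WT and 14.2 and 0.766 CPM in Grhl3-/- keratinocytes. After thinning, an Adipoq UMI was found in 2.18% of fibroblasts, 2.24% of keratinocytes and 0.627% of macrophages of Grhl3-/- replicate 1. In Grhl3-/- replicate 2 the shares were 1.34% of fibroblasts, 0.539% of keratinocytes and 0.777% of macrophages. The 95% exact binomial intervals of the keratinocyte and macrophage shares in replicate 2 reached 1.93% and 2.25%, above the fibroblast share, as did that of macrophages in replicate 1 (2.25%). These groups held 371 keratinocytes and 386 macrophages in replicate 2 and 319 macrophages in replicate 1. Intervals of so few cells are wide, so they cannot decide whether the shares differ. Plin1, a lipid droplet gene, was at 0.0578 to 2.66 CPM and Cidec, another, at 0 to 1.41 CPM. Within each Grhl3-/- library the summed levels of Adipoq, Cfd and Cidec were no higher in fibroblasts than in the higher of keratinocytes and macrophages. For Adipoq in replicate 2 this was the level of 17.8 CPM in macrophages, while by shares of cells the fibroblasts were the highest. Plin1 in replicate 1 was at 2.66 CPM in fibroblasts, 1.43 CPM in keratinocytes and 1.87 CPM in macrophages. With age, 11 of 18 adipocyte genes rose and 1 fell in Grhl3-/-, where 16.1% of all genes rose, and the 11 include Adipoq, Cfd, Plin1 and Cidec. In WT 4 rose, Cd36, Fabp4, Lpl and Plin2, and 1 fell, Adrb3, where 17.9% of all genes rose. The test of the difference between these changes was passed by 1 of the 18 genes, Lpl (1.11, adjusted p = 0.049). Of all genes 0.928% passed it with a more positive change in Grhl3-/-.

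**Figure D3:**
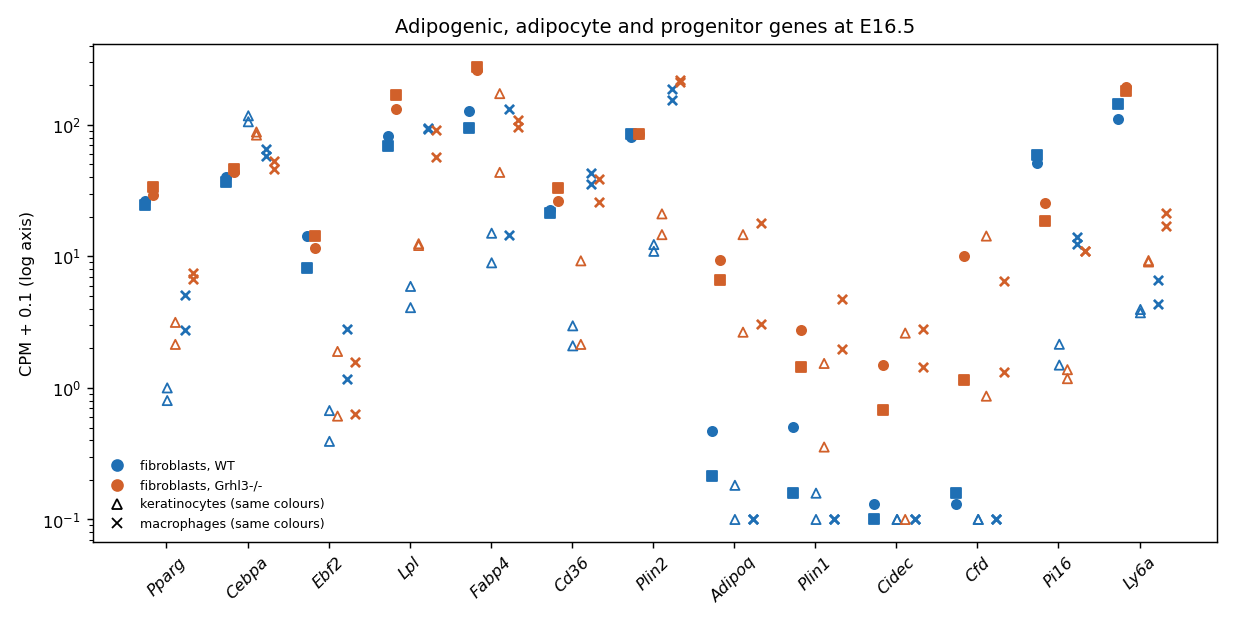
Level (CPM + 0.1, log axis) of 13 genes (horizontal axis) in E16.5 fibroblasts, keratinocytes and macrophages, 1 point per library, WT in blue and Grhl3-/- in orange. Pparg and Ebf2 lie above their keratinocyte and macrophage points in all 4 libraries, Pi16 does so by its summed level, and Adipoq, Plin1, Cidec and Cfd of Grhl3-/- fibroblasts lie within the range of the Grhl3-/- keratinocyte and macrophage points of both libraries together, though Plin1 of replicate 1 is above those of its own library.

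The restraint and progenitor list held 15 genes, none of which passed between genotypes, where 0.74% of all genes did. Pi16 was at 51.4 and 58.5 CPM in WT and 25.3 and 18.4 CPM in Grhl3-/- (-1.33 ± 0.27, adjusted p = 0.0784). Ly6a was at 111 and 144 CPM in WT and 193 and 179 CPM in Grhl3-/- (0.55 ± 0.18, adjusted p = 0.326). The groups did not overlap for either gene, as for 40.3% of all genes. After thinning, a Pi16 UMI was found in 4.56% and 5.61% of WT and 3.52% and 2.68% of Grhl3-/- fibroblasts, and in 3.33% and 5.02% of WT and 6.90% and 3.63% of Grhl3-/- macrophages, so its share in fibroblasts was not set apart from that in macrophages. Between ages Pi16 rose by 3.03 ± 0.30 in WT (adjusted p = 0.000131) and by 2.26 ± 0.31 in Grhl3-/- (adjusted p = 0.000864). Mfap5 rose by 0.66 ± 0.16 in WT (adjusted p = 0.0137) and by 1.72 ± 0.17 in Grhl3-/- (adjusted p = 0.000162).

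Few genes differed between the genotypes. In edgeR's quasi-likelihood test on UMIs summed per library, 110 of 14867 genes passed an adjusted p of 0.05 (0.74%), 28 higher (0.188%) and 82 lower (0.552%) in Grhl3-/- fibroblasts, and 1304 (8.77%) had an unadjusted p under 0.05. The split was more even with DESeq2, which called 84 higher and 101 lower, with a sex covariate (48 higher, 53 lower, 67 of the 110 among them) and without Grhl3-/- replicate 1, the male library (51 higher, 46 lower, 56 of the 110 among them). Without E16.5 WT replicate 1 the count was 22, without WT replicate 2 it was 20 and without Grhl3-/- replicate 2 it was 17. Besides Lpl, the 10 largest increases among well expressed genes without overlap included Hbb-bs, Ptx3, Acta2, Serping1, Figf, Ldhb, Fbln5 and Fxyd1. Of the 22 alternatives, Hbb-bs passed under 13, Ldhb under 12 and Fxyd1 under 6, and each lost its call with a replicate block. The 10 largest decreases were in Krt1, Krt10, Asns, Phgdh, Shmt2, Pck2, Eif4ebp1, Nars, Ngfr and Gars, of which Krt10 was used by the rule and is given as a value with no test. Eif4ebp1 passed under 17 alternatives, Gars under 15, Nars under 14 and Ngfr under 13, and these 4 also lost their calls with the block. Several of these are genes of other cells, and those are taken first.

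Keratin and globin RNA differed between the genotypes in the fibroblasts. Krt1, a keratin of the spinous layer, was at 173 and 219.6 CPM in WT and 58.4 and 38.5 CPM in Grhl3-/-, a difference of -2.02 ± 0.24 (adjusted p = 0.00926). Krt10, which the rule used, was at 256 and 288 CPM in WT and 116 and 79.8 CPM in Grhl3-/-. The 14 keratinocyte genes summed to 827 and 1014 CPM in WT and 346 and 278 CPM in Grhl3-/- fibroblasts. Of the 11 that the rule did not use 5 passed, Krt1, Dmkn, Krtdap, Perp and Sfn. All 5 were lower in Grhl3-/-, where 0.552% of all genes were. The keratin limit removed more cells from the WT libraries, as given above. Krt1 passed under 19 of the 22 alternatives. It kept its call under both other keratin limits tried, chosen after seeing the data, with a difference of -2.02 at a limit per 10000 UMIs and of -2.07 at a limit of 2 UMIs. Over all kept cells Krt1 was at 1644 and 3588 CPM in WT and 912 and 325 CPM in Grhl3-/-. Hbb-bs, a beta globin, was at 7440.0 and 9819.5 CPM in WT and 18361 and 14086 CPM in Grhl3-/-, and the 8 erythroid genes summed to 13325 and 17425 CPM in WT and 33046 and 25144 CPM in Grhl3-/-. The 12 skeletal muscle genes summed to 109 to 136 CPM in 3 libraries and to 489 CPM in Grhl3-/- replicate 2. None of the 12 passed between genotypes, where 0.74% of all genes did. The 10 macrophage genes summed to 127 to 198 CPM and the 8 endothelial genes to 36.0 to 53.5 CPM, with overlap of the genotypes.

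Figf, Ptx3, Serping1, Fbln5 and Acta2 were among the genes higher in Grhl3-/-. Figf, which encodes the lymphatic growth factor VEGF-D (chromosome X, 164373378 to 164402650), was at 74.7 and 70.3 CPM in WT and 123 and 117 CPM in Grhl3-/-. It was 0.73 ± 0.06 higher (adjusted p = 0.0039) and passed under 22 of 22 alternatives, and in macrophages it was at 2.13 to 5.61 CPM. Ptx3, which encodes a secreted pentraxin, was at 27.9 and 33.2 CPM in WT and 49.6 and 64 CPM in Grhl3-/- (0.91 ± 0.13, adjusted p = 0.0194). Serping1, which encodes the C1 inhibitor of complement, was at 38.7 and 43.8 CPM in WT and 62.8 and 75.2 CPM in Grhl3-/- (0.75 ± 0.11, adjusted p = 0.0201). Fbln5, an elastic fibre protein, was at 78.3 and 76 CPM in WT and 104 and 108 CPM in Grhl3-/- (0.45 ± 0.06, adjusted p = 0.0166). Acta2, the actin of smooth muscle and myofibroblasts, was at 33.1 and 27.9 CPM in WT and 50.6 and 63 CPM in Grhl3-/- (0.89 ± 0.13, adjusted p = 0.0228), and over all kept cells it was at 188 and 173 CPM in WT and 274 and 298 CPM in Grhl3-/-. Of the 22 alternatives, Ptx3 passed under 19, Acta2 under 18, Serping1 under 17 and Fbln5 under 14, and Acta2 and Fbln5 lost their calls with a replicate block.

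**Figure D4:**
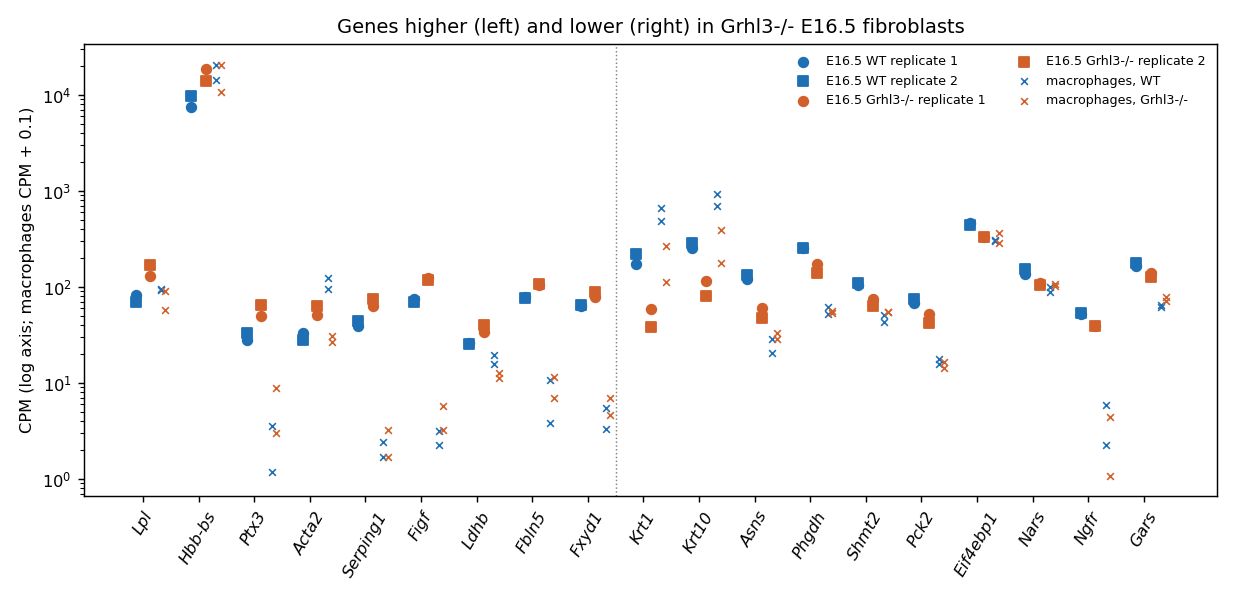
Level (CPM, log axis) of 9 of the 10 genes with the largest increase (left of the dotted line) and the 10 with the largest decrease (right) in Grhl3-/- E16.5 fibroblasts, 1 point per library, with macrophages of the same libraries as crosses (CPM + 0.1). The WT and Grhl3-/- points do not overlap for any of the 19 genes, by the way they were chosen, Krt10 was also used to choose the cells, and the keratins are higher in macrophages than in fibroblasts of the same library, as is Hbb-bs except in Grhl3-/- replicate 1.

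Among the genes lower in Grhl3-/- fibroblasts were several of amino acid synthesis and tRNA charging. Asns encodes asparagine synthetase, Phgdh and Shmt2 act in serine and glycine synthesis, Pck2 is the mitochondrial PEP carboxykinase, Gars and Nars charge tRNAs with glycine and asparagine, and Eif4ebp1 restrains translation. Asns and others of them are known targets of ATF4, the transcription factor of the amino acid response. Asns (chromosome 6, 7675169 to 7693254, minus strand) was at 121 and 132 CPM in WT and 60.8 and 47.1 CPM in Grhl3-/-, a difference of -1.23 ± 0.11 (adjusted p = 0.00403) that passed under 22 of 22 alternatives. Phgdh was at 251 and 253 CPM in WT and 173 and 140.4 CPM in Grhl3-/- (-0.69 ± 0.10, adjusted p = 0.0218). Shmt2 was at 105 and 111 CPM in WT and 74.8 and 63.4 CPM in Grhl3-/- (-0.64 ± 0.09, adjusted p = 0.0173). Pck2 was at 68.5 and 74 CPM in WT and 51.6 and 42.2 CPM in Grhl3-/- (-0.60 ± 0.11, adjusted p = 0.0488). Slc7a5, a transporter of large neutral amino acids, was at 43.7 and 44.9 CPM in WT and 24.4 and 18.9 CPM in Grhl3-/- (-1.04 ± 0.13, adjusted p = 0.0121). In each of these genes Grhl3-/- replicate 2 was the lowest library. Of the 22 alternatives, Slc7a5 passed under 19, Phgdh and Shmt2 under 18 and Pck2 under 13, and Phgdh, Shmt2 and Pck2 lost their calls with a replicate block.

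A list of 33 genes of this response was written after these values had been seen, so it is not independent of them. In it 8 genes passed and were lower in Grhl3-/-, where 0.552% of all genes were, none was higher, and the median difference was -0.36, against 0.01 over all genes. Atf4 itself was at 149 and 158 CPM in WT and 151 and 149 CPM in Grhl3-/- (-0.03 ± 0.06, adjusted p = 0.97), and Ddit3, a stress gene downstream of it, was at 24 to 29.2 CPM in the 4 libraries. In macrophages of the same libraries Asns was at 20.3 and 28.3 CPM in WT and 28.9 and 32.7 CPM in Grhl3-/-, and in keratinocytes, where the genotypes overlapped, at 106 and 159 CPM in WT and 170.0 and 84.5 CPM in Grhl3-/-. With age 27 of the 33 rose and 1 fell in WT and 23 rose and 1 fell in Grhl3-/-, where 17.9% and 16.1% of all genes rose. Asns rose from 22.3 and 23.9 CPM at E14.5 in WT by 2.45 ± 0.12 on the log2 scale (adjusted p = 4.6e-06) and from 23.4 and 25.9 CPM in Grhl3-/- by 1.13 ± 0.12 (adjusted p = 0.000204). At E14.5 none of the 33 passed between genotypes, where 3.58% of all genes did.

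The sequences before the start of 3 of these genes are shown because ATF4 acts through a composite element whose core reads TGATGNAA. The 250 bases upstream of the start in the RefSeq promoter table (GRCm38.p6) were searched for it on both strands, and a match, these letters or their reverse complement, is given in capitals. A match was found for Asns (chr6:7693210-7693459, minus strand, 23 bases before the start), Gars (chr6:55037751-55038000, plus strand, 30 bases) and Pck2 (chr14:55540016-55540265, plus strand, 103 bases):
Asns: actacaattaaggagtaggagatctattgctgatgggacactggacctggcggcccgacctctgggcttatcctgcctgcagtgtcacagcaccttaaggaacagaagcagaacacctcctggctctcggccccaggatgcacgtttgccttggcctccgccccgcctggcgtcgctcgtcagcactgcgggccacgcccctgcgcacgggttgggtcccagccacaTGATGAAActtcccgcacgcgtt
Gars: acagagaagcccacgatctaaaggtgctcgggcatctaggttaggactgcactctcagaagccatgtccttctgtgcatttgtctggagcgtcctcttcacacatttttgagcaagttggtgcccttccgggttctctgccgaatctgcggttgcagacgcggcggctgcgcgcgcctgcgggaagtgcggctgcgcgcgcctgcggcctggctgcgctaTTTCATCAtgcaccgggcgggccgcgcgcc
Pck2: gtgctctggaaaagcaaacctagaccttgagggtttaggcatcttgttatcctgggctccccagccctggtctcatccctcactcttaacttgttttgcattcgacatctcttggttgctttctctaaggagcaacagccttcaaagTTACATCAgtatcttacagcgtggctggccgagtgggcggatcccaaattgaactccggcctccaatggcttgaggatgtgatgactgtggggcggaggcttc
The starts are those of the promoter table, and for Asns the match lies inside the gene span given above, which is from another annotation. The windows of Phgdh and Shmt2 do not hold these letters, and no entry was used for Nars, Eif4ebp1 and Slc7a5. The letters were found in 3.45% of 32851 promoters in the whole table and in 2.05% of the 14005 promoters of genes tested here. The genes were put on the list as genes of the ATF4 response, so a match in them is no independent sign of that factor. A match is a string of letters and not a measured binding site.

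Between E14.5 and E16.5, 36.7% of genes changed in WT and 31.7% in Grhl3-/-. In WT 2655 genes rose (17.9%) and 2804 fell (18.9%), and in Grhl3-/- 2391 rose (16.1%) and 2322 fell (15.6%). The 10 largest increases were in Krt1, Cldn10, Ndufa4l2, Lgals7, Trps1, Krt10, Cav1, Asns, Fabp4 and Hba-a1 in WT (Krt10, used by the rule, as a value only), and in Fabp4, Ly6a, Ndufa4l2, Trps1, Cldn10, Hba-a1, Igfbp7, Hbb-bs, Tppp3 and Aqp1 in Grhl3-/-. The 10 largest decreases included Nnat, Lix1, Sfrp1, Tubb2b, Serpine2, Hba-a2, Ptx3, Igfbp4 and Ptn in WT, and were in Lix1, Sfrp5, Bex1, Irx3, Tubb2b, Crabp1, St8sia2, Col8a1, Atf3 and Irx5 in Grhl3-/-. The keratins, Lgals7 and the globins are genes of epidermis and blood, whose summed levels in fibroblasts also rose with age, keratinocyte genes from 108 to 259.5 CPM at E14.5 to 278 to 1014 CPM and erythroid genes from 4703 to 6059 CPM to 13325 to 33046 CPM. Single erythroid genes went both ways. Of the 8, 4 rose and 4 fell, Hba-a2 among them, in WT, and 4 rose and 3 fell in Grhl3-/-.

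Named fibroblast genes changed with age in both genotypes. Trps1 was at 21.6 and 19.1 CPM at E14.5 and 170.2 and 171 CPM at E16.5 in WT, and at 17.9 and 15.4 CPM and 176 and 167 CPM in Grhl3-/-. It rose by 3.07 ± 0.08 (adjusted p = 1.03e-06) and 3.37 ± 0.09 (adjusted p = 2.59e-07), with every E16.5 library far above every E14.5 library. Cldn10, a claudin, was at 7.99 to 15.4 CPM at E14.5 and 122 to 164 CPM at E16.5. Ndufa4l2, a mitochondrial protein, was at 11.2 to 18.9 CPM at E14.5 and 131 to 225 CPM at E16.5. Cav1, the coat protein of caveolae, was at 62.9 to 88.9 CPM at E14.5 and 402 to 460.0 CPM at E16.5. The ages did not overlap for any of these genes, as the rule that named them requires of the genotype in which they were named. Ndufa4l2 was also at 257 to 556 CPM in keratinocytes. Lix1 was at 68.4 to 118 CPM at E14.5 and 11.7 to 18 CPM at E16.5. Tubb2b, a tubulin, was at 274 to 354 CPM and 70.9 to 84.2 CPM. Crabp1, a retinoic acid binding protein and papillary marker, was at 1439 to 2454 CPM at E14.5 and 679 to 843 CPM at E16.5. These 3 genes fell in both genotypes.

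Most matrix collagens outside the fibrillar group rose in both genotypes. Of 12 such collagens 10 rose and 1 fell in each genotype, the fall being Col8a1. Of all genes 17.9% rose and 18.9% fell in WT, and 16.1% rose and 15.6% fell in Grhl3-/-, and the counts of the matrix lists are to be read beside these shares. Col6a1, a chain of the beaded filaments, was at 657 to 765 CPM at E14.5 and 1239 to 1293 CPM at E16.5. Of 10 fibrillar collagens 6 rose and 3 fell in WT and 6 rose and 2 fell in Grhl3-/-, but Col1a1, Col1a2 and Col3a1, among those that rose, set the rule and give no test. Without them 3 rose and 3 fell in WT, and 3 rose and 2 fell in Grhl3-/-. The falls were in Col2a1, the main collagen of cartilage, and Col24a1 in both genotypes and in Col11a1 in WT. Col1a1 was at 3705 to 4577 CPM at E14.5 and 9464 to 10781 CPM at E16.5. Col5a1, a chain that starts fibrils, rose by 0.80 ± 0.13 in WT (adjusted p = 0.00174) and 0.88 ± 0.13 in Grhl3-/- (adjusted p = 0.00128). Sparc, a collagen-binding glycoprotein, was at 3391 to 4105 CPM at E14.5 and 7797 to 8808 CPM at E16.5. Of 17 elastic fibre genes 4 rose and 7 fell in WT and 10 rose and 2 fell in Grhl3-/-. Between genotypes 5 of them were called at E14.5, all lower in Grhl3-/-, where 3.58% of all genes passed in either direction. At E16.5 the single call was 1 gene higher in Grhl3-/-, where 0.188% of all genes were. Eln, which encodes elastin, was at 229 and 284 CPM at E14.5 and 361 and 368 CPM at E16.5 in WT, and at 213 and 218 CPM and 485 and 556 CPM in Grhl3-/-. Its rise differed between the genotypes (0.77 ± 0.15, adjusted p = 0.0416).

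**Figure D5:**
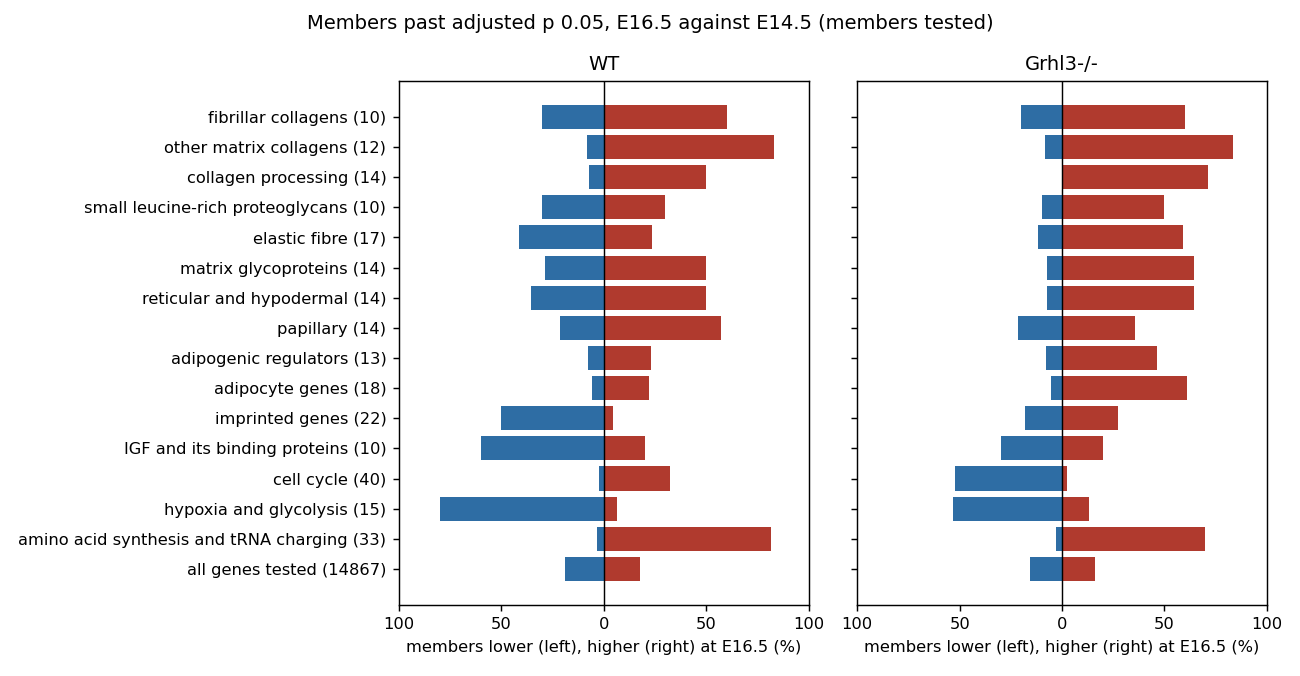
Share of the tested members of each gene list (%, horizontal axis; number of members in brackets) that were lower (left, blue) or higher (right, red) at E16.5 than at E14.5 at an adjusted p under 0.05, in WT and Grhl3-/- fibroblasts, with all 14867 genes as the last row. Other matrix collagens and amino acid genes are mostly higher in both panels, hypoxia and glycolysis genes mostly lower, and the imprinted and cell cycle rows differ between the panels.

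Other lists moved the other way or had unlike counts in the genotypes, beside 17.9% of all genes that rose and 18.9% that fell in WT and 16.1% and 15.6% in Grhl3-/-. Of 15 hypoxia and glycolysis genes 12 fell and 1 rose in WT and 8 fell and 2 rose in Grhl3-/-. Tpi1, a glycolytic enzyme, was at 502 to 687 CPM at E14.5 and 369 to 406 CPM at E16.5. Of 22 imprinted genes 11 fell and 1 rose in WT and 4 fell and 6 rose in Grhl3-/-, and 2 passed the test of the difference between these changes, Mest and Cdkn1c. Mest was at 1440.3 and 1422 CPM at E14.5 and 589 and 521 CPM at E16.5 in WT, and at 1104 and 920.2 CPM and 658 and 682 CPM in Grhl3-/-. Of 40 cell cycle genes 13 rose and 1 fell in WT and 1 rose and 21 fell in Grhl3-/-, and 6 passed the test of the difference, all more negative in Grhl3-/-, where 1.75% of all genes did, 0.928% more positive and 0.821% more negative in Grhl3-/-. The share of fibroblasts with a UMI of Mki67, Top2a, Cdk1 or Ube2c, before thinning, was lower at E16.5 in both genotypes. It was 59.0% and 56.4% at E14.5 and 50.2% and 46.3% at E16.5 in WT, and 61.6% and 60.4% and 47.4% and 47.9% in Grhl3-/-. In WT this share ran against the 13 genes that rose. WT fibroblasts were shallower at E16.5, with medians of 7249.5 and 7108 UMIs against 8151 and 8372 at E14.5. The shares therefore do not compare the ages at equal depth. Between genotypes at E16.5 none of the 40 cell cycle and none of the 22 imprinted genes passed, where 0.74% of all genes did. Differences between genotypes were called at E14.5 for 8 of the cell cycle genes, all higher in Grhl3-/-. Of the imprinted genes 7 were called at that age, all lower, where 3.58% of all genes passed in either direction. Of 14 papillary genes 8 rose and 3 fell in WT and 5 rose and 3 fell in Grhl3-/-. Wif1 was at 89.6 to 129 CPM at E14.5 and 373 to 423 CPM at E16.5, a rise of 1.97 ± 0.09 in WT (adjusted p = 3.22e-06) and 1.65 ± 0.09 in Grhl3-/- (adjusted p = 8.53e-06). Of 14 reticular and hypodermal genes 7 rose and 5 fell in WT and 9 rose and 1 fell in Grhl3-/-. The test of the difference was passed by 5 of them, all more positive in Grhl3-/-, where 0.928% of all genes were. At E14.5, 7 of the 14 were lower in Grhl3-/-, where 3.58% of all genes passed in either direction.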

How the data were processed

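Back skin was digested with Dispase and Accutase, dead cells were removed, and Chromium 3' v2 libraries were made. The deposited matrices hold UMI counts per gene and cell, which the authors made with Cell Ranger on mm10, with a version that differs between the sources used here. P0 libraries were not used. Doublets were scored with Scrublet (scanpy 1.11.5) and kept in the main fit. Counts of the fibroblasts were summed per library and fitted with edgeR 4.0.16 (R 4.3.3) over the 8 embryonic libraries, with filterByExpr, TMM, the quasi-likelihood test and Benjamini-Hochberg adjustment at 0.05. DESeq2 1.42.0 was an alternative. Fibroblast CPM are TMM-scaled, and other cells' CPM are plain. Macrophages had a UMI of at least 3 of 6 macrophage genes. Summed levels cannot tell fewer expressing cells from less RNA per cell. Named genes are the 10 largest called changes each way among genes averaging log2 CPM 5 or more whose groups are separate, the 10 highest and lowest ratios along Dlk1, and list members. Members and lists were chosen with earlier results of these data known. Positions are GENCODE M21 on GRCm38, matched for 472 of 472 genes. Some genes met these rules and are not reported here. Tested on simulated data for genotype at E16.5 (14867 genes), the fit called 100 of 100 genes changed 2-fold and 40 of 100 changed by 0.5 on the log2 scale, with 4 false calls. The simulation gave all genes the same relative spread and no difference between ages, and it changed only genes above a low level. Its counts therefore do not give the power or the error rate of the fit in the real data. The alternatives, stated with the closing values, were left-out libraries, filters, normalization, cell limits and a sex covariate.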

Additional observations from a re-analysis of the deposited data

Results flagged for a closer look

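Every result here was singled out because its change between E14.5 and E16.5 differed between the genotypes in the interaction test of edgeR (quasi-likelihood, Benjamini-Hochberg adjustment). Such a difference was called for 260 of 14867 genes (1.75%), 138 more positive (0.928%) and 122 more negative (0.821%) in Grhl3-/-. The values below are the log2 change in Grhl3-/- minus that in WT, and every group holds 2 libraries. The count depended on single libraries: it was 18 without E16.5 WT replicate 1, 26 without WT replicate 2, 141 without Grhl3-/- replicate 1, 20 without Grhl3-/- replicate 2, 428 without E14.5 WT replicate 1, 170 without E14.5 WT replicate 2 and 80 without E14.5 Grhl3-/- replicate 2. Sex was unequal between the groups at both ages, and with a sex covariate (chosen after seeing the data) 273 genes were called, 214 of them among the 260. Of the genes named below with a value, Ptn lost its call with that covariate. Between genotypes, Ptn, Sfrp2, Plat, Anxa1, Lef1, Nkd1, Sfrp5, Nrn1, Arf5, Hist1h2bc and Lgals7 passed at E14.5 and not at E16.5, so their values rest on a call at E14.5 and not on one at E16.5. Arf5, for example, differed by 0.82 at E14.5 and by 0.01 at E16.5. Acta2, Serping1 and Asns passed at E16.5 and not at E14.5, Ldhb and Krt1 at both ages, and Ly6a and Hba-a2 at neither.

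Among secreted and signalling proteins, Ptn, which encodes pleiotrophin, changed by -1.95 in WT and -0.54 in Grhl3-/- (1.42 ± 0.28, adjusted p = 0.0461). Sfrp2, a secreted Wnt modulator, changed by -1.56 in WT and -0.16 in Grhl3-/- (1.40 ± 0.19, adjusted p = 0.0161), and Plat, the tissue plasminogen activator, by -0.99 in WT and 0.19 in Grhl3-/- (1.18 ± 0.21, adjusted p = 0.0357). Serping1 changed by -0.65 in WT and 0.50 in Grhl3-/- (1.15 ± 0.15, adjusted p = 0.0144). Of intracellular and surface proteins, Ldhb, a lactate dehydrogenase subunit, changed by -1.38 in WT and 0.03 in Grhl3-/- (1.42 ± 0.12, adjusted p = 0.00387). Acta2 changed by -1.91 in WT and -0.71 in Grhl3-/- (1.21 ± 0.18, adjusted p = 0.0206), Ly6a by 2.19 in WT and 3.55 in Grhl3-/- (1.36 ± 0.27, adjusted p = 0.0461) and Anxa1, an annexin, by 1.28 in WT and 2.45 in Grhl3-/- (1.18 ± 0.20, adjusted p = 0.0302). In all of these the value was more positive in Grhl3-/-.

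Of 21 tested Wnt modulators and targets, 4 were more negative in Grhl3-/- (Lef1, Nkd1, Rspo1 and Tcf7), where 0.821% of all genes were, and 1 was more positive (Sfrp2). Lef1 changed by 1.49 in WT and 0.69 in Grhl3-/- (-0.80 ± 0.13, adjusted p = 0.0287), and Nkd1, an inhibitor of the pathway, by 0.71 in WT and -0.18 in Grhl3-/- (-0.89 ± 0.14, adjusted p = 0.0244). Sfrp5, a secreted Wnt inhibitor that was not on this list, changed by -1.18 in WT and -2.03 in Grhl3-/- (-0.85 ± 0.14, adjusted p = 0.0283). Asns changed by 2.45 in WT and 1.13 in Grhl3-/- (-1.32 ± 0.16, adjusted p = 0.0143). Nrn1, which encodes neuritin, changed by 1.13 in WT and 0.28 in Grhl3-/- (-0.85 ± 0.15, adjusted p = 0.0372), Arf5, a small GTPase, by 0.11 in WT and -0.71 in Grhl3-/- (-0.81 ± 0.08, adjusted p = 0.00664), and the histone gene Hist1h2bc by 0.83 in WT and -0.04 in Grhl3-/- (-0.87 ± 0.12, adjusted p = 0.0161).

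The remaining genes belong to epidermis and blood. Krt1 changed by 4.14 in WT and 0.62 in Grhl3-/- (-3.52 ± 0.35, adjusted p = 0.00685), Lgals7, an epidermal galectin, by 3.52 in WT and 0.54 in Grhl3-/- (-2.97 ± 0.35, adjusted p = 0.0106), and Krt10, which the rule used and which is given as values only, by 2.87 in WT and 0.59 in Grhl3-/-, a difference of -2.27. The summed keratinocyte genes in fibroblasts were 827 and 1014 CPM in WT and 346 and 278 CPM in Grhl3-/- at E16.5. At E14.5 the order was the reverse, with 108 and 115 CPM in WT and 156 and 259.5 CPM in Grhl3-/-. Hba-a2, an alpha globin, changed by -2.12 in WT and -0.47 in Grhl3-/- (1.65 ± 0.28, adjusted p = 0.0298), where the erythroid genes summed to 13325 and 17425 CPM in WT and 33046 and 25144 CPM in Grhl3-/-. The part of free RNA in these values was not tested.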

How the results depend on the processing

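No direction reversed among the named genes. At E16.5, 21 genes gave 462 values between genotypes, of which 336 kept their side of the threshold and 126 lost it. For age in WT 1409 of 1451 values, for age in Grhl3-/- 1396 of 1485, and for the difference between ages 419 of 588 kept it. The genotype count of 110 became 185 (84 higher, 101 lower) with DESeq2, 493 (248 higher, 245 lower) with no expression filter, 229 with only the 4 E16.5 libraries, 57 with cells thinned, 68 without cells with cell cycle UMIs, 52 with keratins at most 2 UMIs (chosen after seeing the data), and 17 to 130 when a library was left out. The interaction count of 260 became 446 with DESeq2, 1119 with no filter, 87 thinned, 60 without cycling cells, 158 with keratins at most 2, and 18 to 428 with a library left out. Age counts with a library left out were 3231 to 5379 in WT and 2555 to 4994 in Grhl3-/-. With a replicate block the genotype count was 40 and the interaction count 63. The numbers do not pair the samples by the labels, and deviations of same-numbered libraries correlated at 0.01, -0.06 and 0.05 over 6254 genes.

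Dlk1 with age in WT was -0.56 with DESeq2, -0.56 with only WT libraries and -0.35 with a sex covariate (chosen after seeing the data), none of them past the threshold, and -0.87 to -0.16 with a library left out, where 7 of 8 fits lost the call. The share difference of 14.4 points was -2.72 with keratinocytes and erythroid cells out of the denominator, 5.19 with the keratin limit per 10000 UMIs (chosen after seeing the data), and 6.73 to 22.1 with a library left out. The Dlk1 range of 38.7 UMIs was 25.9 thinned to 2000, 127 as UMIs per 10000 without thinning, and 38.3 to 39.0 with a library left out. The cause of the other changes given here was not tested, beyond the smaller UMI number that thinning leaves.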

Other observations

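The first E14.5 WT library stood apart at the Dlk1 locus. Dlk1 was at 7924 CPM there and at 4017 to 4854 CPM in the other 3 E14.5 libraries, while Meg3, the non-coding RNA of the other parental allele at the same locus, was at 2534 CPM there and at 6249.8 to 7169 CPM in the others. Mirg, another transcript of the locus, was at 18.0 CPM there and at 36.2 to 44.7 CPM in the others. At E16.5 the 4 libraries lay at 4331 to 4878 CPM for Dlk1 and 3921 to 4334 CPM for Meg3. The Schwann and melanocyte genes also summed to 95.5 CPM in that library, against 14.6 to 17.2 CPM in the other 3. These are values of 1 library, with no test.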
